A study of Rattus norvegicus with 49 samples.

Results

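The nuclear receptors CAR (gene Nr1i3) and PXR (gene Nr1i2) were followed, together with the liver enzymes they are best known to control, in rats given propylene glycol phenyl ether, a glycol ether solvent. The members were 10 gene symbols, namely the receptors Nr1i2 and Nr1i3, the cytochrome P450 genes Cyp3a23-3a1, Cyp3a2, Cyp3a9, Cyp2b1, Cyp2c6v1 and Cyp2c7, the P450 reductase gene Por, and Ephx1, which encodes microsomal epoxide hydrolase. Every probe set whose platform annotation gives exactly 1 of these symbols was taken, which gave 11 of the 31042 probe sets that are not controls. Of the 10 genes, 9 had a probe set of their own and are among the 14218 genes tested one by one, and Por had 2 probe sets. Cyp2b1 was measured only by a probe set that also names Cyp2b2, so its signal is reported as Cyp2b1/Cyp2b2 and cannot be split between these near-identical genes.

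All rats were male Harlan Sprague Dawley animals, an outbred stock, 6 to 8 weeks old when assigned to groups and fed NTP-2000 diet. They received 0, 1, 10, 100, 500 or 1000 mg/kg by gavage in corn oil at 5 mL/kg on 5 consecutive days, and were killed the day after the last dose. The controls received 0 mg/kg. The title and the compound label name propylene glycol phenyl ether, whereas the treatment text names MCHM, and this conflict could not be settled here. A group given 2000 mg/kg was killed moribund before its last dose and gave no samples. Liver was measured on 25 arrays, 5 from controls and 4 from each higher dose, and kidney on 24 arrays, again 5 from controls and 4 per dose, except for 3 at 500 mg/kg. Each array holds 1 sample that the labels call a biological replicate.

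CAR and PXR are receptors of the liver that sense foreign chemicals, drugs and some bile acids and steroids. Each pairs with the retinoid X receptor on DNA elements made of repeated AGNTCA words and raises transcription of P450 enzymes, conjugating enzymes and transporters. In rat liver, Cyp3a23-3a1 is a classical target of PXR, and Cyp2b1 and Cyp2b2 are the classical targets of CAR, known for their response to phenobarbital. The P450 enzymes need electrons from NADPH, which P450 reductase delivers, and epoxide hydrolase opens the reactive epoxides that some P450 reactions leave.

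Values are log2 expression values made with RMA, a method that combines the probes of a probe set after background correction and normalization, so a difference of 1 is a doubling of the signal. The number of arrays limits the precision. The array medians ranged from 5.21 to 5.31 (liver) and from 5.33 to 5.37 (kidney), and the lowest correlation between any pair of arrays was 0.985 in liver and 0.989 in kidney. The tissue labels matched their markers. The hepatocyte gene Alb averaged 14.70 ± 0.02 (SD, n = 5) in control livers and 4.40 ± 0.34 (SD, n = 5) in control kidneys, and the tubule gene Umod averaged 4.27 ± 0.39 (SD, n = 5) and 12.95 ± 0.27 (SD, n = 5). A gene was called changed at a limma adjusted p under 0.05 over all 14218 genes. In bulk tissue, fewer cells of a type and less RNA per cell cannot be told apart.

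The promoters of 9 of the 10 symbols were found in RefSeq (build GRCr8) as windows from 250 bases before to 50 bases after the gene start, with 2 windows for Ephx1. They were searched on both strands for arrangements of the receptor word that CAR and PXR are known to bind. These were DR3 (AGNTCANNNAGNTCA), DR4 (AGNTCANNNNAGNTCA), ER6 (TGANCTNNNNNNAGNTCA) and ER8 (TGANCTNNNNNNNNAGNTCA). Only the windows of Cyp3a23-3a1 and Cyp3a2 held a match, and every match was a DR3. Over all 33469 promoters of that length, 0.0777% held DR3, 0.0568% DR4, 0.0388% ER6 and 0.0598% ER8. A match is a run of letters and not a shown binding site, and longer-range enhancers lie outside these windows.

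The 250 bases before the start of both genes are shown because these neighbouring Cyp3a genes share a promoter layout and yet gave different changes at 1000 mg/kg. The Cyp3a23-3a1 stretch is chr12:14398804-14399053 and the Cyp3a2 stretch chr12:14343858-14344107, both on the minus strand and read 5′ to 3′ on the gene's strand, with DR3 matches in capitals.
Cyp3a23-3a1: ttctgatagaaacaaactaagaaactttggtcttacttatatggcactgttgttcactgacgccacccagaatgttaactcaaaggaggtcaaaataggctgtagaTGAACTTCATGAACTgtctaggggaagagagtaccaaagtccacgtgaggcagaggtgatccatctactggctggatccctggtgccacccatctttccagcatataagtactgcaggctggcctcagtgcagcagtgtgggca
Cyp3a2: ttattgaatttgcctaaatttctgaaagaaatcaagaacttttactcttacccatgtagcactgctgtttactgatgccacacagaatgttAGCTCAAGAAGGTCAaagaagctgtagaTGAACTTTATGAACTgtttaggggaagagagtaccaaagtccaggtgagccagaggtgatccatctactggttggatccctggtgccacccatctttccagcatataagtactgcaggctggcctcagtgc
The Cyp3a23-3a1 window held TGAACTTCATGAACT at -144 to -130 from the gene start, which on the other strand reads AGTTCATGAAGTTCA. The Cyp3a2 window held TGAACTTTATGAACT at -131 to -117. Counting from 1 at the 5′ end of the match as printed, with the Cyp3a23-3a1 base first, they differ by C8T, which lies in the spacer. Cyp3a2 held a second DR3, AGCTCAAGAAGGTCA, at -159 to -145. At the corresponding place the printed Cyp3a23-3a1 stretch reads aactcaaaggaggtca, which resembles DR4 but matches none of the arrangements searched. Aligned over the full windows, Cyp3a23-3a1 and Cyp3a2 were identical in 254 of 315 columns (80.6%), while Cyp3a9 reached 56.7% with Cyp3a23-3a1 and 51.8% with Cyp3a2.

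In liver at 1000 mg/kg, Cyp3a23-3a1 and Ephx1 were the members that rose, that is 2 of the 9 members with a gene probe set, while 1.05% of all genes were called in that comparison and 0.739% of all genes were called higher. Neither receptor was called. The median log2 change was 0.33 over the 9 members and 0.02 over all genes, and 8 of 9 members had a change above 0, as did 54.3% of all genes. At 1, 10, 100 and 500 mg/kg no member was called by limma, where 0, 0.00703%, 0 and 0.0492% of all genes were. At each of these doses 1 of the 11 probe sets, that of Cyp3a23-3a1, had an unadjusted p under 0.05 in the fit over all probe sets, as did 7.82%, 7.58%, 7.53% and 8.29% of all probe sets. A share of 1 in 11 is near that background.

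Cyp3a23-3a1 encodes a major steroid- and drug-oxidising P450. In control livers its values were 12.28, 12.21, 11.88, 12.16 and 12.45, and at 1000 mg/kg they were 12.88, 13.04, 13.22 and 13.01. Every array at 1000 mg/kg lay above every control. The means were 12.19 ± 0.21 (SD, n = 5) and 13.04 ± 0.14 (SD, n = 4). Cyp3a23-3a1 thus rose by 0.84 on the log2 scale (95% interval 0.56 to 1.12), or 1.79-fold (limma adjusted p = 0.00239). Leaving out each of the 9 arrays in turn gave changes of 0.76 to 0.91 with adjusted p of 0.00198 to 0.0194.

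The lower doses had means between those of these groups. Cyp3a23-3a1 was 12.61, 12.88, 12.20 and 12.28 at 1 mg/kg, and 12.68, 12.54, 12.40 and 12.41 at 10 mg/kg. It was 12.63, 12.70, 12.23 and 12.62 at 100 mg/kg, and 12.29, 12.74, 12.34 and 12.55 at 500 mg/kg. All 4 groups overlapped the controls, and their means of 12.49, 12.51, 12.55 and 12.48 did not rise steadily with dose. Their changes from the controls were 0.30, 0.31, 0.35 and 0.28, with unadjusted p of 0.0387, 0.0306, 0.0163 and 0.0469 and limma adjusted p of 0.495, 0.501, 0.402 and 0.457. These 4 comparisons share the same 5 control arrays. Between 500 and 1000 mg/kg the change was 0.56 (95% interval 0.26 to 0.85), with every array at 1000 mg/kg above every array at 500 mg/kg, where 1.6% of probe sets did so, but its adjusted p was 0.259 in a comparison where 0.00703% of genes were called.

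A trend over the 6 dose ranks was called for Cyp3a23-3a1 in liver, at 0.12 ± 0.03 (SE) per rank (limma adjusted p = 0.0235), and for no other of the 9 members, while 0.661% of genes had a called trend. Left out singly, each of 6 of the 25 arrays took the call away. The adjusted p was 0.0503, 0.0628 and 0.0547 when control replicates 1, 3 and 4 were left out, and 0.0541, 0.0879 and 0.0719 for replicates 2, 3 and 4 at 1000 mg/kg.

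Cyp3a2, the Cyp3a gene next to Cyp3a23-3a1 and known as a male-predominant P450, was not called. Its values were 13.83, 13.82, 13.73, 13.83 and 13.80 in controls and 13.81, 13.87, 13.81 and 13.82 at 1000 mg/kg. These groups overlapped, and the log2 change was 0.030 (95% interval -0.11 to 0.17, limma adjusted p = 0.909), so a rise as large as that of Cyp3a23-3a1 lies outside the interval. Its group means at the other doses ran from 13.72 to 13.82. A value near the top of the array's range can be compressed, and this was not tested.

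Cyp3a9, a P450 known to be higher in female rats, varied widely between animals. Its control values were 8.59, 8.34, 7.25, 8.44 and 7.42, a spread of 0.63 (SD, n = 5), against 8.77, 8.49, 8.63 and 8.88 at 1000 mg/kg. The 1000 mg/kg group was tighter (SD 0.17, n = 4), and 3 of its 4 arrays lay above all controls. The log2 change was 0.69 (95% interval -0.01 to 1.38) and did not pass the test (limma adjusted p = 0.407). At the other doses the means were 8.01, 8.42, 8.54 and 8.37, with single arrays from 7.37 to 9.12.

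The Cyp2b1/Cyp2b2 probe set read 11.02, 11.37, 10.49, 11.13 and 10.83 in controls and 11.01, 11.51, 11.87 and 11.71 at 1000 mg/kg. At 1000 mg/kg replicates 2, 3 and 4 stood above the controls and replicate 1 fell among them. The log2 change was 0.56 (95% interval 0.07 to 1.05, unadjusted p = 0.026), and limma over all 31042 probe sets gave an adjusted p of 0.443, where 0.3% of probe sets were called. At 1, 10, 100 and 500 mg/kg the changes were 0.30, 0.26, 0.038 and 0.39, with adjusted p from 0.684 to 0.98. The classical CAR target therefore did not pass the test at any dose.

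Cyp2c6v1 and Cyp2c7 encode P450s of the CYP2C family, the latter known as female-predominant. Cyp2c6v1 read 13.60, 13.63, 13.52, 13.61 and 13.52 in controls and 13.66, 13.72, 13.75 and 13.72 at 1000 mg/kg, so the groups did not overlap, yet the shift of 0.14 (95% interval 0.0015 to 0.27) had a limma adjusted p of 0.396. Cyp2c7 averaged 13.24 ± 0.17 (SD, n = 5) in controls and 13.20 ± 0.26 (SD, n = 4) at 1000 mg/kg, a change of -0.041 (95% interval -0.31 to 0.22, adjusted p = 0.937). The groups of Cyp2c7 overlapped. Both genes read close to the level of Cyp3a2, so compression near the top of the range could apply to them too, and it was not tested.

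Ephx1, the epoxide hydrolase gene and a known target of both receptors, read 12.58, 12.61, 12.62, 12.49 and 12.75 in control livers and 12.88, 12.78, 13.05 and 13.04 at 1000 mg/kg. No array of these groups overlapped. The means were 12.61 ± 0.09 (SD, n = 5) and 12.94 ± 0.13 (SD, n = 4), so Ephx1 rose by 0.33 on the log2 scale (95% interval 0.17 to 0.49), or 1.26-fold (limma adjusted p = 0.0356). The call was close to the threshold. It was lost over all probe sets (adjusted p = 0.0848), in a fit of controls and 1000 mg/kg alone (0.164) and after quantile normalization (0.0716), and when any array was left out singly other than control replicate 5 or 1000 mg/kg replicate 2, with adjusted p from 0.0241 to 0.164 over the 9 fits.

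The order of Ephx1 over dose was not monotone. At 100 mg/kg its values were 12.43, 12.41, 12.49 and 12.45, all below every control, with a change of -0.16 and a limma adjusted p of 0.53, in a comparison where 1.04% of probe sets had all arrays below the controls. Its means were 12.72, 12.68, 12.44 and 12.66 at 1, 10, 100 and 500 mg/kg, and no trend was called (adjusted p = 0.512).

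Por encodes the single reductase that supplies electrons to all microsomal P450s. Its brighter probe set read 8.19, 7.56, 7.90, 8.14 and 8.72 in controls and 8.51, 8.58, 8.92 and 8.13 at 1000 mg/kg, so only replicate 3 stood above all controls. The log2 change was 0.43 (95% interval 0.05 to 0.81, unadjusted p = 0.0274, limma adjusted p = 0.321). At 1, 10, 100 and 500 mg/kg its means were 8.26, 8.30, 8.19 and 8.15. The other Por probe set had a change of 0.27 (95% interval -0.03 to 0.56, adjusted p = 0.588), in the same direction and also not called.

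The receptor genes themselves were not called. Nr1i2, which encodes PXR, read 8.46, 8.59, 8.40, 8.39 and 8.64 in control livers and 8.67, 8.34, 8.64 and 8.35 at 1000 mg/kg, with a change of 0.0050 (95% interval -0.23 to 0.24, limma adjusted p = 0.994). At 100 mg/kg its 4 arrays, between 8.65 and 8.79, all lay above the controls, where 1.68% of probe sets did, with an adjusted p of 0.58. Nr1i3, which encodes CAR, read 8.00, 8.82, 7.30, 8.03 and 7.85 in controls and 8.32, 8.54, 9.17 and 8.52 at 1000 mg/kg. Its change was 0.64 (95% interval -0.02 to 1.29, limma adjusted p = 0.416), with a control SD of 0.55 (n = 5). Only replicate 3 at 1000 mg/kg stood above all controls.

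**Figure D1:**
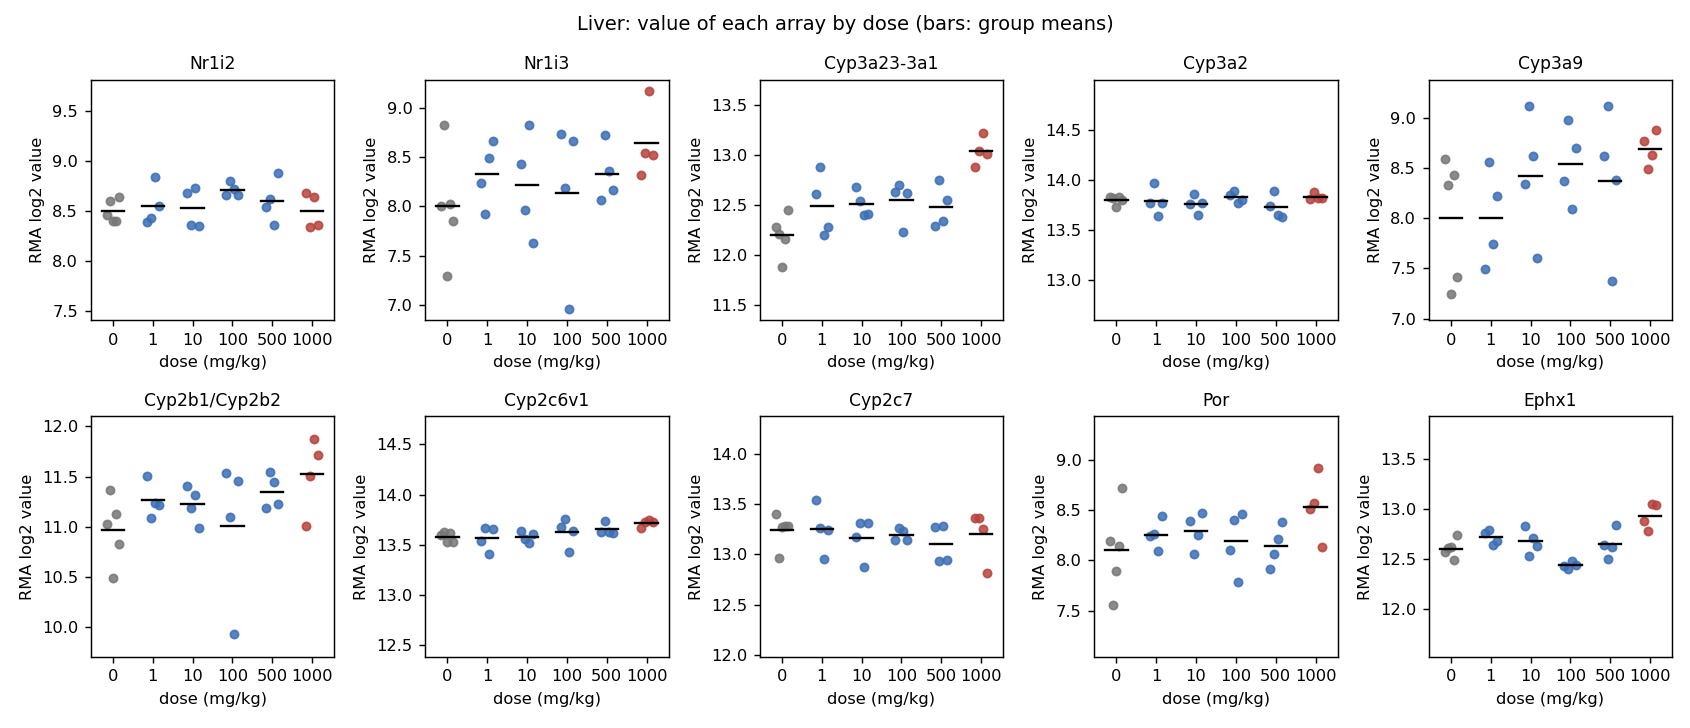
RMA log2 value (vertical axes, each spanning at least 2.4 units) of each liver array by dose in mg/kg, 1 panel per member, with the brighter probe set for Por; points are arrays, bars are group means, controls are grey and 1000 mg/kg is red. Cyp3a23-3a1 lies between 12.88 and 13.22 at 1000 mg/kg, above all 5 controls, while the 5 control arrays of Cyp3a9 spread from 7.25 to 8.59 and those of Nr1i3 from 7.30 to 8.82.

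Among the 11 probe sets in liver at 1000 mg/kg, 3 had all arrays above all controls, namely Cyp3a23-3a1, Cyp2c6v1 and Ephx1, where 2.33% of all probe sets did. None had all arrays below, where 1.43% did. With no adjustment, 5 of the 11 had p under 0.05 in the limma fit over all probe sets, as did 9.53% of all probe sets. They were those of Cyp3a23-3a1, Cyp3a9, Cyp2b1/Cyp2b2 and Ephx1, and the brighter Por probe set. The unadjusted limma p of Cyp3a9 was 0.0486 in this fit and 0.0524 in the fit over genes. That of Cyp2c6v1 was 0.0656 and 0.0477. The intervals given above for both genes are from the fit over genes.

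No gene of the cell type marker lists was called in liver at 1000 mg/kg. The mean of 7 hepatocyte genes ran from 13.20 to 13.48 in control livers and from 13.14 to 13.31 at 1000 mg/kg, and 1 of the 7 had a change above 0 (median log2 change -0.07). Among them Apoa1, an apolipoprotein, had a change of -0.28 (limma adjusted p = 0.0641). The 7 pericentral markers, which mark the zone where P450s are concentrated, ran from 8.85 to 9.13 and from 8.73 to 9.06 (median -0.10), and the 7 periportal markers from 10.38 to 10.54 and from 10.11 to 10.65. Single zone markers had changes of the size of that of Ephx1, such as -0.47 for Oat, -0.41 for Pck1, -0.30 for Glul and -0.29 for Hal, with adjusted p from 0.262 to 0.402. The 9 macrophage genes ran from 8.62 to 9.05 and from 8.40 to 8.72, with 0 of 9 changes above 0 (median -0.20), and the 4 erythroid genes from 7.70 to 8.07 and from 7.57 to 7.96, with 0 of 4 above 0 (median -0.23). The part of these markers, which were named after their values were seen, in the members' changes was not tested.

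Apart from dose, 3 of 45 pairs of members were called as varying together between livers by Pearson correlation, and 2 of these 3 also by Spearman. For each of the 45 pairs of members the deviations of the 25 liver arrays from their dose means were correlated, with a permutation test within doses and adjustment over the 45 pairs. Nr1i3 and the Cyp2b1/Cyp2b2 probe set had Pearson r = 0.87 and Spearman rho = 0.83, each with a permutation p of 1e-05, the smallest that 100000 resamples can give, and an adjusted p of 0.00045. Among livers of the same dose, those with a higher Nr1i3 value tended to have a higher Cyp2b1/Cyp2b2 value.

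The relation did not rest on single arrays. The lowest values of both probe sets came from the same animal, replicate 3 at 100 mg/kg, with 6.96 for Nr1i3 and 9.93 for Cyp2b1/Cyp2b2. Without it r was 0.81. Without the 2 arrays whose Cyp2b1/Cyp2b2 deviations lay farthest from their median, r was 0.83. Leaving out each dose group gave r of 0.77 to 0.91. The slope was 0.65 log2 units of Cyp2b1/Cyp2b2 per unit of Nr1i3.

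Within single doses the pattern can be read from the arrays. At 100 mg/kg Nr1i3 was 8.73, 8.19, 6.96 and 8.66 while Cyp2b1/Cyp2b2 was 11.53, 11.10, 9.93 and 11.45. In controls the 5 Nr1i3 values given above ran beside 11.02, 11.37, 10.49, 11.13 and 10.83, so replicate 2 was highest and replicate 3 lowest for both. The pattern was not seen at every dose. At 1 mg/kg the highest Nr1i3 value was from replicate 4 and the highest Cyp2b1/Cyp2b2 value from replicate 1, with Nr1i3 at 8.24, 7.92, 8.49 and 8.67 and Cyp2b1/Cyp2b2 at 11.50, 11.09, 11.24 and 11.21.

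**Figure D2:**
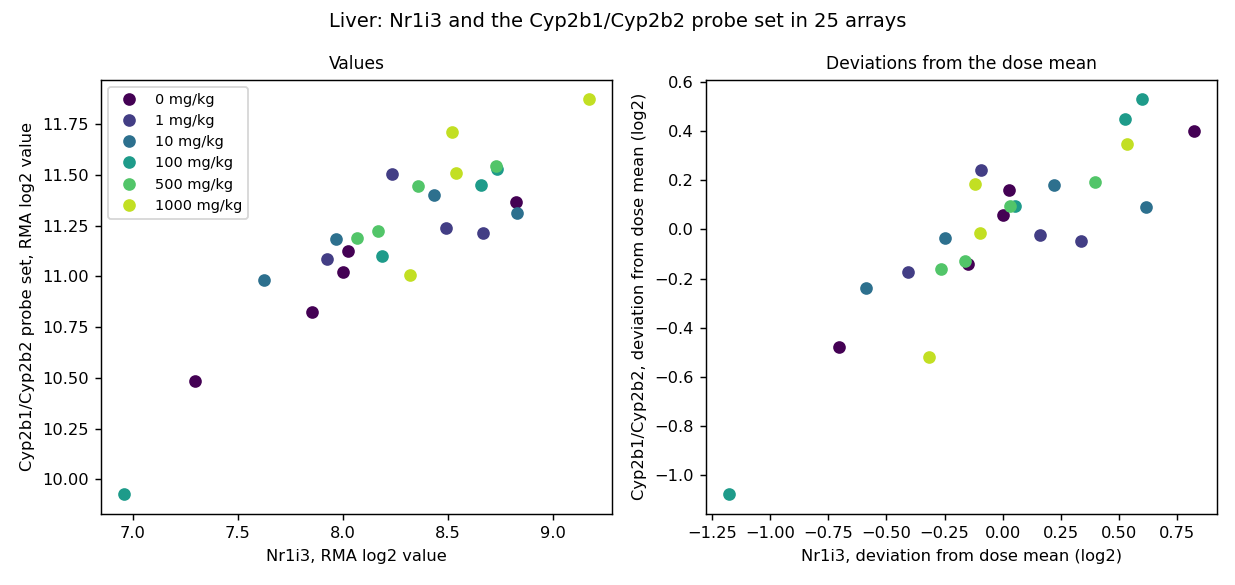
Each point is 1 of 25 liver arrays, coloured by dose; the left panel plots RMA log2 values of Nr1i3 (horizontal) and the Cyp2b1/Cyp2b2 probe set (vertical), and the right panel plots their deviations from the dose mean in log2 units. The deviations rise together with r = 0.87, and the lowest point of both panels is replicate 3 at 100 mg/kg.

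Of the other pairs, Cyp3a2 and Cyp2c6v1 had r = 0.68 and rho = 0.70 (permutation, adjusted p = 0.00945 and 0.0128), and r = 0.63 without the 2 farthest arrays. Cyp3a23-3a1 and Cyp3a2, the neighbouring genes shown above, had r = 0.67 (permutation p = 0.00315, adjusted p = 0.0473) and rho = 0.57 (p = 0.0112, adjusted p = 0.126), and r = 0.55 without the 2 farthest arrays, so only the Pearson value passed. They varied together between animals of a dose, while their means at 1000 mg/kg differed from controls by 0.84 and 0.03. The other 42 pairs were not called. PXR and its classical target gave no such value, with r = 0.0040 and rho = 0.065 for Nr1i2 and Cyp3a23-3a1 (permutation, adjusted p = 0.988 and 0.905). The same test in kidney called 0 of 45 pairs, with a median r of 0.12 against 0.18 in liver. There the P450 and Nr1i3 probe sets were not shown to be above background. Pairs of other genes were not tested in this way.

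The genes most like the called members were found by Pearson correlation over the 25 liver arrays, dose included. For Cyp3a23-3a1 they were Cyp3a18, another Cyp3a enzyme (r = 0.84), Abcc3, an efflux transporter of conjugates (r = 0.81), and Fdft1, the squalene synthase of cholesterol synthesis (r = 0.79). For Ephx1 they were Akr7a3, an aldehyde reductase (r = 0.75), Slc17a3, an anion transporter (r = 0.74), and Tbcc, a tubulin-folding cofactor (r = 0.73). All 6 were picked for their likeness over arrays that share the dose steps, so these values describe and carry no test.

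Of 17 other measured genes, of conjugation, hydrolysis and transport, 4 were called higher in liver at 1000 mg/kg and none lower. Over all genes 0.739% were called higher and 0.309% lower. The median log2 change of the 17 was 0.22, and 13 of them had a change above 0, as did 54.3% of all genes. Among the genes not called, Abcc2, a transporter, had a change of -0.40 (limma adjusted p = 0.0625). This list, like the others, was chosen with earlier results of these data known, so its count is no test. Its genes Sult2a1 and Akr1b7 averaged 2.80 and 3.35 in control livers, not shown to be above background. Gsta3, a glutathione transferase, went from 6.77 ± 0.84 (SD, n = 5) to 9.42 ± 0.22 (SD, n = 4). Abcc3 went from 5.39 ± 0.47 (SD, n = 5) to 7.16 ± 0.38 (SD, n = 4), and Ces2c, a carboxylesterase, from 7.51 ± 0.18 (SD, n = 5) to 8.78 ± 0.38 (SD, n = 4). The fourth, Aldh1a1, a retinaldehyde dehydrogenase, rose by 0.58 (limma adjusted p = 0.0279). The log2 changes of Gsta3, Abcc3 and Ces2c were 2.65, 1.77 and 1.28 (adjusted p = 9.13e-05, 9.01e-06 and 0.000234).

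Of 12 other CYP2A, CYP2B, CYP2C and CYP3A enzymes only Cyp3a18 was called, at 12.36 ± 0.12 (SD, n = 5) in controls and 12.84 ± 0.12 (SD, n = 4) at 1000 mg/kg, a change of 0.48 (limma adjusted p = 0.0144). The median of these 12 was 0.02. Among them Cyp2a3, Cyp2b12 and Cyp2b21 averaged only 3.49, 2.86 and 3.71 in control livers, below the array medians and not shown to be above background. Without replicate 3 at 1000 mg/kg none of the 12 was called, and without replicate 4 there were 2. Cyp3a18 is also 1 of 5 P450s known as male-predominant and the only called gene among them, and none of 4 female-predominant P450s was called.

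Heme synthesis and electron supply serve every P450. Of 13 measured genes Uros, a heme synthesis enzyme, rose by 0.53 (limma adjusted p = 0.0219) and Cyb5b, a cytochrome b5, rose by 0.44 (0.0215), while Hmox1, which degrades heme, fell by 0.45 (0.0375). Alas1, the rate-limiting enzyme of heme synthesis and itself a known target of both receptors, had a change of -0.16 (adjusted p = 0.766). The median of the list was 0.11, and 0 of its genes were called when replicate 1 or 3 at 1000 mg/kg was left out and 1 when control replicate 2 or replicate 4 at 1000 mg/kg was.

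Of 24 partners and regulators of the receptors none was called by limma in liver. The smallest p belonged to Rxra, the shared DNA-binding partner, with a change of 0.49 (unadjusted p = 0.0011, adjusted p = 0.0744), and to Hsp90ab1, a chaperone (0.13, adjusted p = 0.491). Without control replicate 4, 1 of the 24 was called. Of 9 growth, glucose and lipid genes known to respond to these receptors only Cd36, a fatty acid transporter, was called, with a change of 0.65 (adjusted p = 0.0375), and the call was lost when control replicate 1, 2 or 4, or replicate 1, 3 or 4 at 1000 mg/kg, was left out. Of 6 P450s controlled by the AhR or PPAR alpha none was called, the smallest p being those of Cyp4a1 (0.44, adjusted p = 0.117) and Cyp4a8 (0.43, adjusted p = 0.481).

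**Figure D3:**
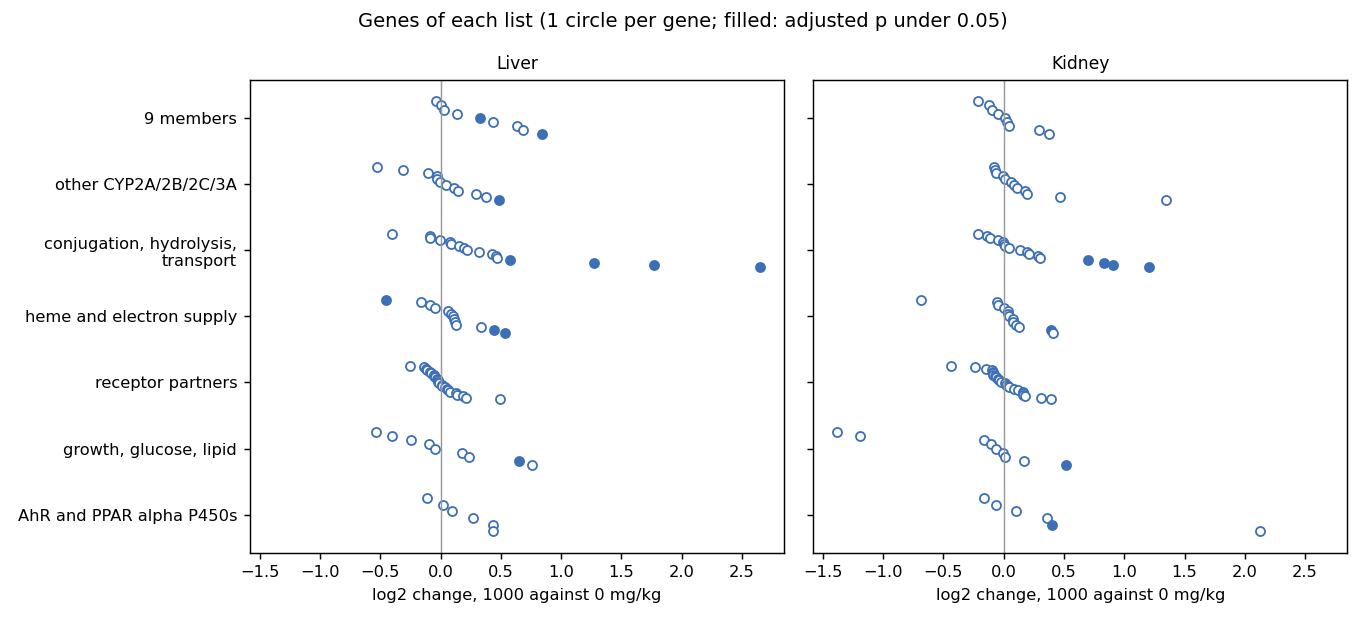
Log2 change at 1000 against 0 mg/kg (horizontal axis) of each measured gene, 1 circle per gene and 1 row per list, in liver (left) and kidney (right); filled circles have a limma adjusted p under 0.05. In liver 4 of 17 conjugation, hydrolysis and transport genes are filled, up to 2.65, and in kidney 4 of 17, up to 1.21.

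In kidney no member was called at any dose by limma, whereas 1.55% of all genes were at 1000 mg/kg and no gene at the 4 lower doses. With no adjustment, 0, 0, 1, 1 and 1 of the 11 probe sets had p under 0.05 from the lowest to the highest dose (Por at 100 mg/kg, Ephx1 at 500 and 1000 mg/kg), where 2.99%, 5.99%, 6.35%, 4.61% and 10.2% of all probe sets did. The probe sets of the 6 P450 symbols and of Nr1i3 read between 2.30 and 4.23 on every kidney array, below the array medians, and were not shown to be above background, so only Nr1i2, Por and Ephx1 could be followed there.

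Ephx1 was the member with the largest shift in kidney. It read 10.09, 9.84, 10.04, 10.16 and 9.98 in controls, 10.44, 10.38 and 10.20 at 500 mg/kg, and 10.11, 10.59, 10.27 and 10.62 at 1000 mg/kg. All 3 arrays at 500 mg/kg lay above the controls, where 1.7% of probe sets did, and 3 of 4 did at 1000 mg/kg. The log2 change was 0.32 at 500 mg/kg (95% interval 0.03 to 0.61, limma adjusted p = 0.964) and 0.38 at 1000 mg/kg (95% interval 0.11 to 0.65, adjusted p = 0.176), and the trend of 0.08 per dose rank had an adjusted p of 0.0826, so none passed. A kidney trend was called for 0 of the 9 members and for 1.39% of all genes.

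Nr1i2 in kidney averaged 6.53 ± 0.20 (SD, n = 5) in controls and 6.56 ± 0.15 (SD, n = 4) at 1000 mg/kg, a change of 0.029 (95% interval -0.22 to 0.27, limma adjusted p = 0.955). The brighter Por probe set read 8.78, 8.70, 8.64, 8.77 and 8.66 in controls and 8.49, 8.73, 8.64 and 8.46 at 1000 mg/kg, a change of -0.12 (95% interval -0.33 to 0.08, adjusted p = 0.662). Neither gene left the range of its lower doses. In 7 kidney arrays adipocyte markers were over 0.5 above the control mean, 1 of them a control and 0 at 1000 mg/kg. Without these arrays the Ephx1 change was 0.41 (adjusted p = 0.104).

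**Figure D4:**
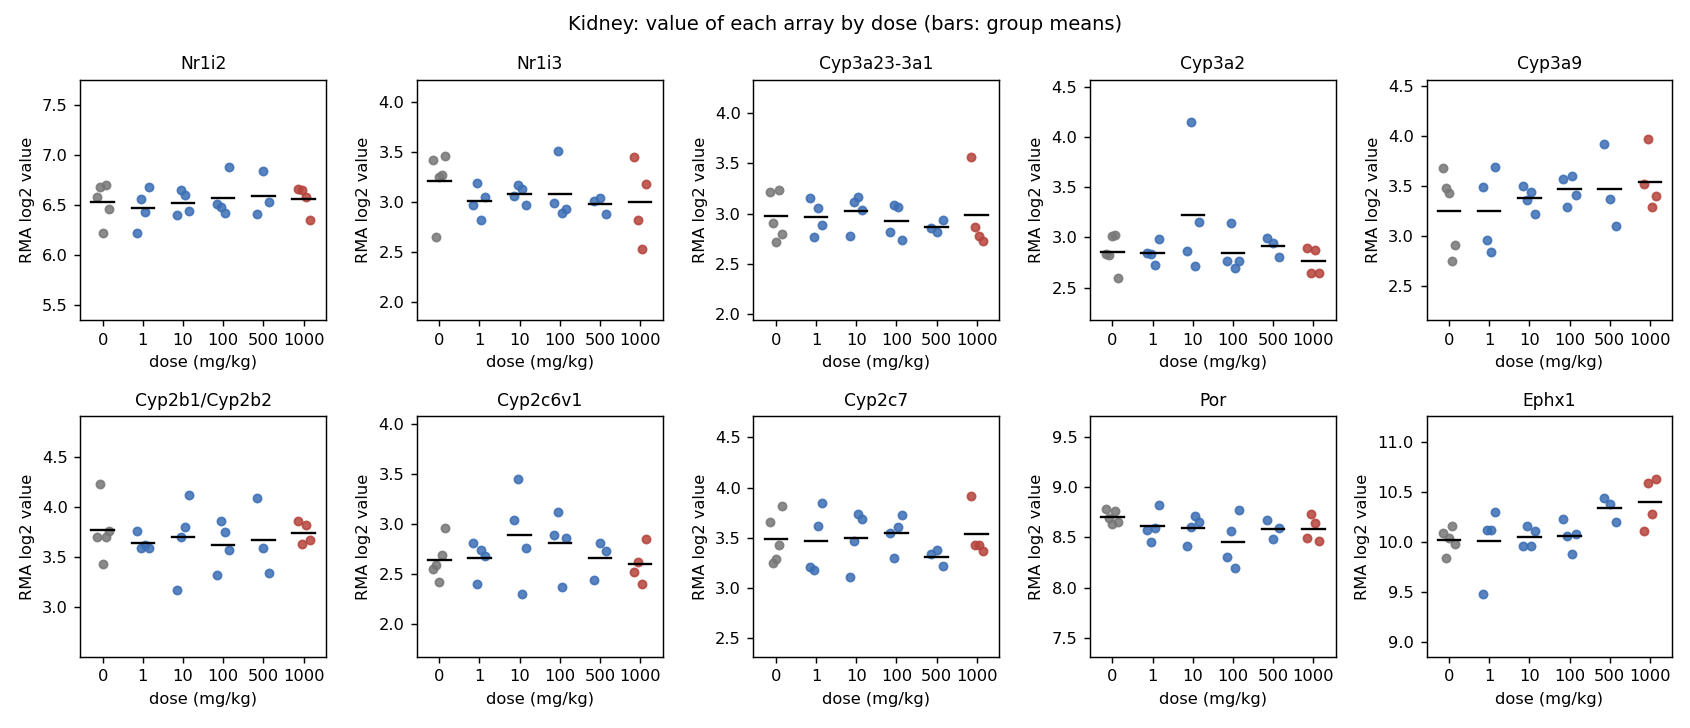
RMA log2 value (vertical axes, each spanning at least 2.4 units) of each kidney array by dose in mg/kg, 1 panel per member, with the brighter probe set for Por; points are arrays and bars are group means. Ephx1 lies between 9.84 and 10.16 in controls and between 10.11 and 10.62 at 1000 mg/kg, and the P450s and Nr1i3 stay between 2.30 and 4.23.

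In kidney, genes of the other lists were called at 1000 mg/kg, where 0.506% of all genes were called higher and 1.04% lower. Of 17 conjugation, hydrolysis and transport genes 4 rose, namely Gstm1 (1.21, limma adjusted p = 0.000453), Gstm2 (0.70, 0.00511) and Gsta3 (0.91, 0.00799), all glutathione transferases, and the sulfotransferase Sult1a1 (0.83, 0.03). Gsta3 was thus called in both organs. Cyb5a, cytochrome b5, rose by 0.40 (0.00142), Pck1, of gluconeogenesis, by 0.52 (0.0366), and the PPAR alpha target Cyp4a3 by 0.40 (0.0131). The Pck1 and Cyp4a3 calls were lost without the 7 arrays high in adipocyte markers, and the part of these markers was not tested. The Pck1 call was also lost when control replicate 1, 3 or 4, or replicate 1, 2 or 3 at 1000 mg/kg, was left out, and the Cyp4a3 call without replicate 3 at 1000 mg/kg. Without replicate 4 at 1000 mg/kg, 2 genes of heme and electron supply were called.

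Single genes of other cell type marker lists were also called at this dose in kidney. The mean of the 9 macrophage genes ran from 6.23 to 6.41 in controls and from 6.04 to 6.18 at 1000 mg/kg, with no overlap. A change above 0 was found for 1 of 9, and for 44.5% of all genes. Among the 9, Adgre1, a macrophage surface receptor, fell by 0.80 (limma adjusted p = 0.0218). The 7 genes that mark pericentral hepatocytes in liver ran from 7.120 to 7.289 and from 7.294 to 7.468, also with no overlap. Of these genes 1, the P450 gene Cyp2e1, rose by 0.76 (limma adjusted p = 0.0329). Over all genes taken singly, 3.09% had all arrays at 1000 mg/kg below all controls and 1.62% had all above. The 7 kidney tubule genes ran from 11.61 to 11.83 and from 11.62 to 11.81, with none called. The part of these markers in the kidney changes was not tested.

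No gene was called among the 12 other CYP2A, CYP2B, CYP2C and CYP3A enzymes in kidney by limma, the smallest p being those of Cyp2c11 (1.34, unadjusted p = 0.013, adjusted p = 0.219) and Cyp2c12 (0.47, adjusted p = 0.334). Of the 24 receptor partners none was called, with Rxrg at -0.43 (adjusted p = 0.192) and Dnajc7 at -0.14 (adjusted p = 0.275).

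The liver change minus the kidney change at 1000 mg/kg could be read only for Nr1i2, Por and Ephx1, whose values lay above the array medians in both organs. For none of these 3 was the difference called by limma, while 0.626% of genes were. For Ephx1 the liver and kidney changes of 0.33 and 0.38 differed by -0.050 (adjusted p = 0.93). For Por the difference was 0.56 (unadjusted p = 0.0134, adjusted p = 0.267), and for Nr1i2 -0.024 (adjusted p = 0.972). The fit also gave 0.83 ± 0.20 (SE, adjusted p = 0.0408) for Cyp3a23-3a1, whose kidney values averaged 2.97 ± 0.24 (SD, n = 5) in controls and 2.98 ± 0.39 (SD, n = 4) at 1000 mg/kg and were not shown above background. This value therefore restates the liver change and is no test of a different response in kidney. It passed the threshold in 5 of the 18 fits that left out 1 array, with adjusted p from 0.0046 to 0.119, and not over all probe sets (adjusted p = 0.0792).

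**Figure D5:**
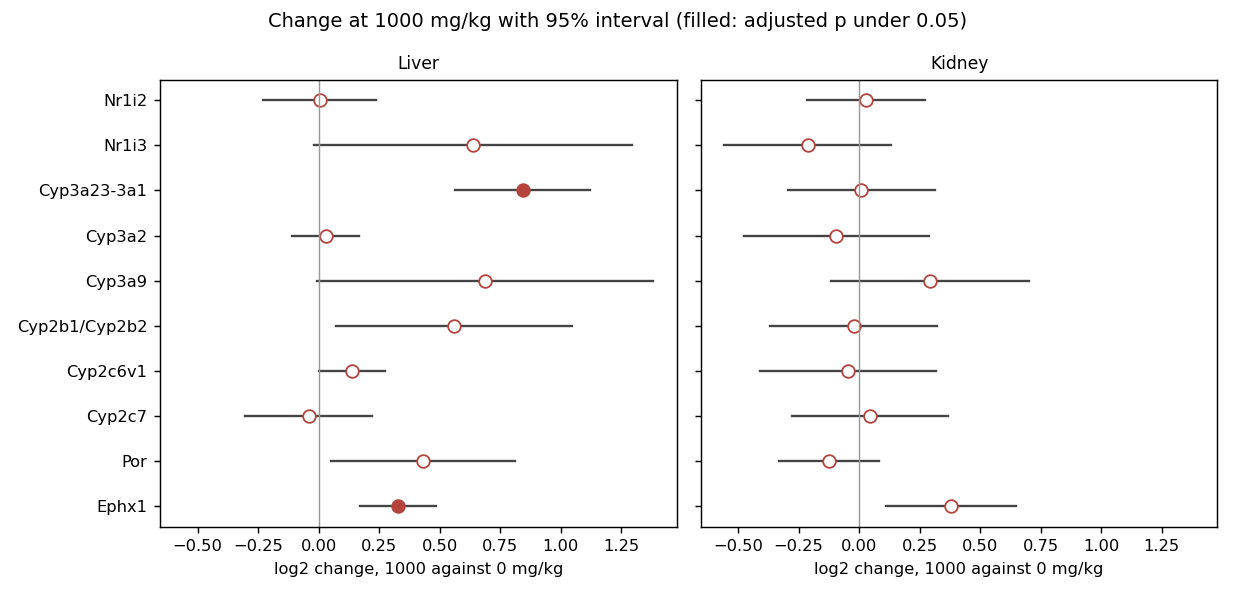
Log2 change at 1000 against 0 mg/kg (horizontal axis) with its 95% interval from limma for each member in liver (left) and kidney (right); filled circles have an adjusted p under 0.05, over genes or, for Cyp2b1/Cyp2b2, over probe sets. In liver Cyp3a23-3a1 (0.84) and Ephx1 (0.33) are filled, and in kidney none is.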

How the data were processed

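RNA of each tissue sample was hybridized to an Affymetrix rat genome-wide expression array, per the labels' protocols. Per the submitters' processing notes, RMA was the method by which the authors made the deposited log2 values. The RMA version and whether both organs were normalized together are not given in the sources used here, so levels were compared within an organ. RMA gives the probes of every array the same distribution before combining them, so a shift of most genes would largely not show. The combined values can still differ slightly between arrays, as the array medians above do. No detection calls were used. Cross-hybridization between related P450 genes was not tested.

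The table held 31099 probe sets, 57 of them controls. Of the 31042 others, 20832 had 1 symbol in the platform annotation, 436 several and 9774 none. Single symbols were updated through Entrez identifiers (20764 probe sets) or accessions (2), and 66 kept theirs. Each of 14218 genes was represented by its probe set with the highest mean over 49 arrays. For each organ limma 3.58.1 in R 4.3.3 fitted 1 mean per dose, with Benjamini-Hochberg adjustment over all genes, and again over all 31042 probe sets. Trend over dose rank and the difference between organs were separate fits. Pairs of members were tested by permutation. The scripts were tested on simulated data. The members and lists were chosen with earlier results of these data known.

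Named genes are all members, up to 6 called genes per list and organ by smallest p (where none was called, the 2 with the smallest p), and the 3 genes most correlated with each member called in liver. Alas1, Abcc2 and the probe sets most like Nr1i3 were chosen after their values were seen. Alternatives were the mean of a gene's probe sets, brighter genes only, quantile normalization, array weights, median centring of arrays, a replicate block, robust moderation with a variance trend, the 2 groups alone, all probe sets, and leaving out each array. Leaving out kidney arrays high in adipocyte markers or liver 500 mg/kg replicate 3, and single arrays in the trend and organ fits, was chosen after seeing the data. P-values from limma set a change against the spread between these samples, and those of pairs came from permutation within doses.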

Additional observations from a re-analysis of the deposited data

Results flagged for a closer look

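In 7 of 121 groups of 4 or 5 arrays, a member's highest or lowest array lay far from the rest of its group by Dixon's criterion, and chance gives about 1 in 20. In liver these were Cyp3a23-3a1 at 100 mg/kg, where replicate 3 read 12.23 and the next array 12.62, and Cyp2c6v1 at 500 mg/kg, where replicate 2 read 13.73 and the next 13.63. In kidney they were Cyp3a23-3a1 replicate 1 (3.56) and Cyp2c7 replicate 1 (3.91) at 1000 mg/kg, Cyp3a2 replicate 2 at 100 mg/kg (3.14), Nr1i3 replicate 2 in controls (2.65) and Nr1i3 replicate 2 at 100 mg/kg (3.52). All 5 kidney values lie in the range not shown to be above background. The liver change minus the kidney change of Cyp3a23-3a1 at 1000 mg/kg was 0.83, but its kidney values of 2.97 and 2.98 were not shown above background, so it is no test of a different response in kidney.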

How the results depend on the processing

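Of 9 members, 2 were called in liver at 1000 mg/kg, and 1 was called after quantile normalization, over all probe sets and in a fit of only controls and 1000 mg/kg, and 1 to 2 when single arrays were left out. The cause was not tested, except that all probe sets are more tests and the fit of 2 groups has fewer arrays. In this fit of 2 groups the liver counts became 0 for other CYP2A, CYP2B, CYP2C and CYP3A enzymes, 0 for heme and electron supply, 0 for growth, glucose and lipid genes and 0 for male-predominant P450s, and the kidney counts 0 for growth, glucose and lipid genes and 0 for AhR and PPAR alpha P450s. The liver count of growth, glucose and lipid genes was also 0 after quantile normalization, with arrays centred and with the replicate block. Without the kidney arrays high in adipocyte markers the last 2 kidney counts were 0 and 0. Array weights called 1 receptor partner in liver, and the replicate block 2 heme and electron supply genes in kidney. Leaving out single arrays gave 0 to 2 other CYP enzymes, 0 to 3 heme and electron genes, 0 to 1 receptor partners, 0 to 1 growth genes and 0 to 2 male-predominant P450s in liver. In kidney it gave 1 to 2 heme and electron genes, 0 to 1 growth genes and 0 to 1 AhR and PPAR alpha P450s. The conjugation, hydrolysis and transport list had 3 to 4 called genes in liver and 3 to 5 in kidney across these fits. A trend in liver was called for 0 to 1 members and a difference between organs for 0 to 1 (Cyp3a23-3a1, not above background in kidney).

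Only changes that were not called turned sign. In liver Nr1i2 was -0.048 after quantile normalization and -0.029 with arrays centred, and Cyp3a2 -0.0048 with arrays centred. In kidney Cyp3a23-3a1 was -0.0081 after quantile normalization, -0.051 with array weights and -0.036 with the replicate block, Cyp2c7 -0.0057 with array weights, and Cyp2c6v1 0.033 with the replicate block. With single arrays left out, liver Nr1i2 ranged from -0.053 to 0.060 and Cyp2c7 from -0.11 to 0.086, and in kidney Cyp3a23-3a1 from -0.18 to 0.093, Cyp2c7 from -0.081 to 0.13, Cyp2c6v1 from -0.13 to 0.033, Nr1i2 from -0.049 to 0.10 and Cyp2b1/Cyp2b2 from -0.11 to 0.094. Replicate numbers were not taken to pair the arrays. Deviations of arrays of the same number and another dose correlated at -0.22 to 0.30 in liver (median -0.0037, against -0.0071 for other numbers) and -0.32 to 0.31 in kidney (median 0.079, against -0.025). Liver and kidney arrays of the same dose and number correlated at -0.018 to 0.23 (24 pairs, median 0.11), and with these as a random block the organ difference of Cyp3a23-3a1 had an adjusted p of 0.0286 by limma. The replicate block changed no call of a member. Signal over background limits the kidney P450s and Nr1i3.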

Other observations

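The probe sets whose deviations from the dose mean followed those of Nr1i3 most closely in liver were ranked over all 31041 others. The median r was 0.02 and the 99th percentile 0.55. The Cyp2b1/Cyp2b2 probe set ranked 2, and ranks 1 and 3 were both probe sets of Pcp4l1, a relative of the calmodulin regulator Pcp4, with r = 0.87 and 0.82. In the RefSeq gene order of GRCr8, Pcp4l1 is the gene next to Nr1i3 on chromosome 13. Ugt2b1, a glucuronosyltransferase of the conjugation list, ranked 6 with r = 0.76. Without replicate 3 at 100 mg/kg these values were 0.82 and 0.75 for Pcp4l1, 0.81 for Cyp2b1/Cyp2b2 and 0.67 for Ugt2b1. At 1000 mg/kg the Pcp4l1 probe sets differed from controls by 0.022 and 0.13 and Ugt2b1 by 0.42. All r values are over the same 25 arrays, which share normalization, and describe them with no test.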
